A study of Mus musculus with 12 samples.

Results

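10 genes of protein folding were followed in the mouse cerebellum, chosen by name as the commonly studied constitutive and inducible chaperones: Hspa8, Hspa1a, Hspa1b, Hspa5, Hspa4, Hsph1, Dnajb1, Hsp90aa1, Hsp90ab1 and Hspb1. These are 10 of the 57010 genes in the deposited count table, and all 10 had enough reads to be tested. The choice was made with earlier results of these data known, so shares of the 10 set beside all genes are descriptive. RNA was sequenced in bulk from crus 1, a lateral lobule of the cerebellum, in 3 groups of 4 libraries. They were Fmr1 knockout (KO) mice given poly(I:C) into the peritoneal cavity, Fmr1 KO mice given saline, and FVB mice, the background strain, given saline. No FVB group given poly(I:C) was analysed here, so the treatment was compared only within the knockout. Fmr1 encodes FMRP, the RNA-binding protein lost in fragile X syndrome, and poly(I:C), a made analogue of double-stranded RNA, is used as a stand-in for viral infection. Dose, time after injection, age, the type of Fmr1 allele and the number of animals behind each library are not given. The p-values therefore measure the spread between these libraries, which may be partly technical.

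Chaperones bind unfolded stretches of other proteins and keep them from aggregating. HSP70 proteins (Hspa genes) do so in cycles of ATP hydrolysis that J-domain proteins such as Dnajb1 start and HSP110 proteins (Hsph1, Hspa4) reset by nucleotide exchange, while HSP90 proteins act later, on clients that are nearly folded. Hspa8, Hsp90ab1 and Hspa5 are made at high levels in resting cells, whereas Hspa1a, Hspa1b and Hspb1 are the classic genes of the heat shock response, in which the transcription factor HSF1 binds inverted repeats of GAA in their promoters.

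The promoters of the genes called higher after poly(I:C) are shown, with such repeats marked. Each run holds the 250 bases before the annotated start in RefSeq, build GRCm38.p6, and capitals mark GAANNTTC, a pair of facing GAA units that reads the same on both strands. The windows are chr17:34972157-34972406 on the minus strand for Hspa1a, chr17:34959239-34959488 on the minus strand for Hspa1b and chr5:135887669-135887918 on the plus strand for Hspb1.
Hspa1a: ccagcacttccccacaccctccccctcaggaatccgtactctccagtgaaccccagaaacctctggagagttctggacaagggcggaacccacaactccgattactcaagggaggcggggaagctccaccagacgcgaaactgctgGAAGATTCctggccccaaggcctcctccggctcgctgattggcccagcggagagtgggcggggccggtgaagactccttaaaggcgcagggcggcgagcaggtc
Hspa1b: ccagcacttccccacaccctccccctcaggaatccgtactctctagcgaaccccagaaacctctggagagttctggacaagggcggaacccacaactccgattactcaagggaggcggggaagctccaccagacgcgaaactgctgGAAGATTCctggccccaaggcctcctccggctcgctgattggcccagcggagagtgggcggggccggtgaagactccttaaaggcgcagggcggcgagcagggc
Hspb1: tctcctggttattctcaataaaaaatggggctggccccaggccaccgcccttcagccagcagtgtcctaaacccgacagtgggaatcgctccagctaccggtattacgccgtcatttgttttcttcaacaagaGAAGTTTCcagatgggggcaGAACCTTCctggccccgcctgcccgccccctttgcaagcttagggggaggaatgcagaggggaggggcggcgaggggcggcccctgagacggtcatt
The Hspa1a and Hspa1b windows were 98.8% identical, with 3 of 250 bases different, and each held 1 match that ended 96 bases before the start. Hspb1 held 2 matches, ending 109 and 89 bases before its start. GAANNTTC was present in 6.69% of all 32817 RefSeq windows of this length. The Hsph1 window held no GAANNTTC but 1 match to TTCNNGAA, the same units facing the other way, which 7.16% of windows held and which can overlap GAANNTTC. The windows of Hspa5, Hspa4 and Dnajb1 held neither, like most windows, of which 12.8% held either. The windows printed were picked by the rise and 2 of them are near copies, so they carry no test against the others. Promoters of Hspa8, Hsp90aa1 and Hsp90ab1 were not analysed here. A match of letters is a description and not a binding site.

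Library depth was 39.4 to 56.4 M counts in poly(I:C) KO, 38.7 to 50.2 M counts in saline KO and 35.2 to 48.7 M counts in FVB. Fmr1 had 33.9 to 36.0 CPM (library-scaled counts per 1 M counts) in poly(I:C) KO, 27.9 to 36.7 CPM in saline KO and 85.5 to 108 CPM in FVB, so the targeted gene was lower in every knockout library. All 12 tested interferon-stimulated genes of a fixed list rose in poly(I:C) KO over saline KO. Libraries 2 and 3 of poly(I:C) KO and library 2 of saline KO stood apart, with 2167, 2631 and 4156 CPM of Ttr, the transthyretin gene of the choroid plexus, against 1.63 to 65.3 CPM in the other 9 libraries. Results that involve the knockout are therefore also given without these 3 libraries where that ends a call.

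Per kilobase of exon, the chaperones spanned a wide range of levels. In FVB the mean was 492 CPM per kb for Hsp90ab1, the constitutive cytosolic HSP90. Hspa8, the constitutive cytosolic HSP70 that also strips clathrin from synaptic vesicles, had 270 CPM per kb, and Hsp90aa1, the more stress-responsive HSP90, had 229 CPM per kb. Hspa5, the endoplasmic reticulum HSP70 known as BiP, followed with 64.1 CPM per kb and Hspa4 with 47.1 CPM per kb. Hsph1 had 20.2 and Dnajb1 15.1 CPM per kb. The classic heat shock genes were lowest, at 3.65 CPM per kb for Hspa1b, 3.06 for Hspb1 and 0.499 for Hspa1a. The order was not tested, and the Hspa8 level leaves out the counts of its processed copies. Of the 100-base windows of their transcripts, Hspa1a, Hspa1b and Hspb1 share 48.6%, 49.9% and 44.0% with other genes. For Hsp90aa1 and Hspa8 the shares are 38.0% and 28.2%. Gm20481, on the other strand, overlaps 564 exon bases of Hspa1a. Strandedness and the counting of reads that match several places are not given, so these levels are uncertain.

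After poly(I:C), Hspa1a, Hspa1b and Hspb1 rose 2.79- to 3.53-fold in the knockout. None of the other 7 chaperones passed the test, among them Dnajb1 and Hsp90aa1, which also respond to stress. Hspa1a, which encodes inducible HSP70, had 2.78, 5.87, 5.59 and 4.69 CPM in poly(I:C) KO, against 1.33, 1.08, 1.82 and 1.45 CPM in saline KO and 1.39, 1.30, 1.56 and 1.67 CPM in FVB. Every poly(I:C) library lay above all 8 others, with library 1 the lowest of them. The log2 fold change from saline KO was 1.73 with SE 0.232 and an adjusted p of 9.75e-05 (edgeR's quasi-likelihood test, Benjamini-Hochberg over 19166 genes).

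Hspa1b, its near-identical neighbour on chromosome 17, had 11.9, 14.8, 24.6 and 19.9 CPM in poly(I:C) KO, against 2.55, 4.71, 2.82 and 9.88 CPM in saline KO and 10.0, 9.78, 10.5 and 10.6 CPM in FVB. The poly(I:C) libraries again lay above all others, but saline KO was spread widely and its library 4 reached the level of FVB. The rise over saline KO was 1.82 on the log2 scale with SE 0.409 and an edgeR adjusted p of 0.0479. This call is fragile: it was lost on leaving out any 1 library except library 4 of saline KO or library 1 of poly(I:C) KO, with adjusted p up to 0.131.

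Hspb1, a small heat shock protein that holds unfolded proteins without ATP, had 6.31, 8.59, 13.3 and 6.27 CPM in poly(I:C) KO. It had 2.27, 2.80, 2.33 and 4.89 CPM in saline KO and 2.93, 3.58, 3.02 and 3.09 CPM in FVB. The poly(I:C) libraries lay above all 8 others, with libraries 3 and 2 the highest, while saline KO and FVB overlapped, and library 4 was the highest of saline KO. The log2 fold change was 1.48 with SE 0.267 and an edgeR adjusted p of 0.00485.

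**Figure D1:**
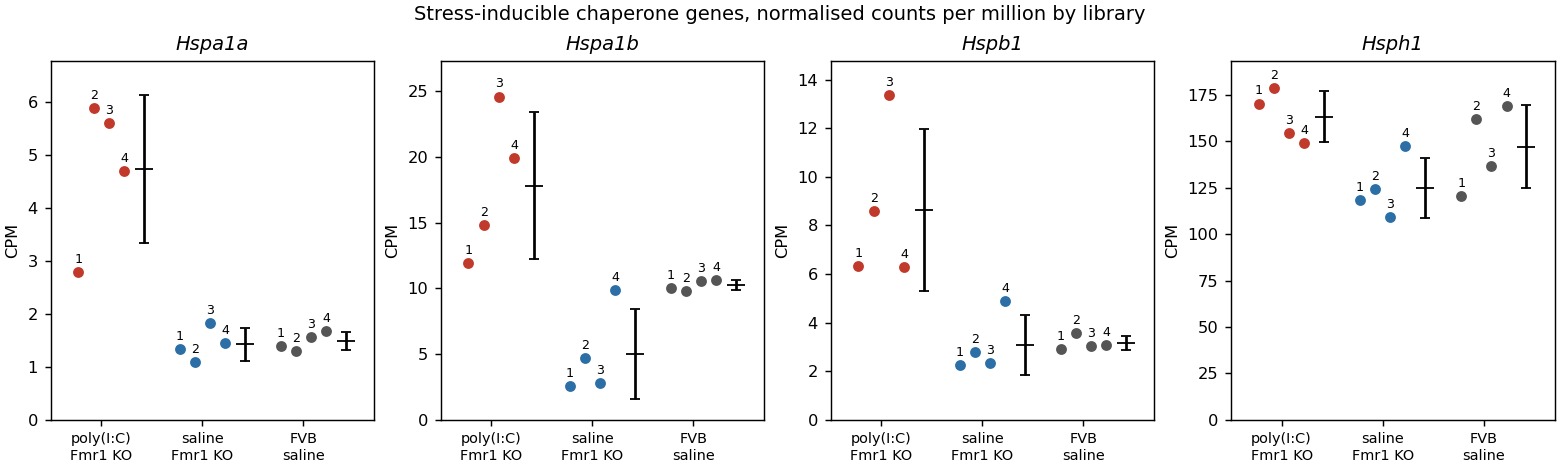
Normalised CPM (linear axis from 0) of Hspa1a, Hspa1b, Hspb1 and Hsph1, 1 point per library with its replicate number, and the mean with SD bars over 4 libraries at the right of each group. The poly(I:C) Fmr1 KO points lie above all saline Fmr1 KO points in each of the 4 genes, and Hsph1 alone overlaps with FVB.

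The 3 high-Ttr libraries touch these results. Summed CPM of 12 tested choroid plexus and ependyma markers ran between 40.3 and 2847 in poly(I:C) KO, between 48.3 and 4452 in saline KO and between 43.5 and 108 in FVB; 0 of the 12 were called higher after poly(I:C) in the knockout by edgeR, and 0 had an unadjusted p under 0.05. Of the list, Sostdc1 had no count in poly(I:C) library 1 and Prlr none in saline KO library 1. Without the 3 libraries, Hspa1a was 1.28 higher on the log2 scale (edgeR adjusted p 0.0275), whereas Hspb1 was 0.98 higher with an adjusted p of 0.169 and Hspa1b 1.62 higher with an adjusted p of 0.518. That fit kept 2 poly(I:C) and 3 saline KO libraries. The part of choroid plexus tissue in the Hspb1 and Hspa1b results was not tested. In bulk tissue, fewer cells of a type and less RNA per cell cannot be told apart.

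Markers of other cell types also moved between the knockout groups. Of 6 microglia markers, P2ry12 and Csf1r fell after poly(I:C), by 0.62 and 0.41 on the log2 scale with edgeR adjusted p of 0.0165 and 0.0372. Summed CPM of the 6 ran between 82.6 and 102 in poly(I:C) KO, between 92.6 and 115 in saline KO and between 103 and 116 in FVB, with none of the 6 at 0 in any library. Aqp4 of 6 astrocyte markers and Opalin of 6 oligodendrocyte markers fell too, by 0.36 and 1.27 (edgeR adjusted p 0.0368 and 0.000202). Summed CPM in poly(I:C) KO, saline KO and FVB overlapped for both lists. Each of these 3 cell types had markers that went the other way. Between the knockout groups, 2 of 6 microglia, 3 of 6 astrocyte and 3 of 6 oligodendrocyte markers had a positive log2 fold change. All 5 erythrocyte markers had a negative log2 fold change, with a median of -1.30, and 3 lay wholly below saline KO, but edgeR called 0 and 0 had an unadjusted p under 0.05. Their summed CPM ran between 67.8 and 118 in poly(I:C) KO, between 90.2 and 264 in saline KO and between 39.7 and 618 in FVB. Of 6 granule cell and 6 endothelial and mural markers edgeR called 0, with 0 and 1 at an unadjusted p under 0.05. All 6 endothelial and mural markers had a negative log2 fold change, with a median of -0.17, and 1 lay wholly below saline KO. Of the granule cell markers 2 were positive and 4 negative. The part of these cell types in the chaperone results was not tested.

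Of the 10 chaperones 3 were called higher, against 1.81% of all tested genes called in that direction and 2.87% called in either. Hspa1a and Hspa1b, 2 of the 3, share 47.1% to 49.9% of their 100-base windows. They may therefore not count as separate members, and the Hspa1b call was fragile. All 10 had a positive log2 fold change, with a median of 0.22, against a median of -0.0017 over all tested genes. Without the 3 high-Ttr libraries Hspa8, Hsp90ab1 and Hspa5 were at -0.19, -0.011 and -0.0054, and leaving out single libraries turned the sign of Hspa8, Hsp90ab1 or Hspa4. In 4 of 10 the poly(I:C) libraries lay wholly above saline KO, against 4.93% of all tested genes. The fourth was Hsph1, with 170, 179, 155 and 149 CPM in poly(I:C) KO, against 118, 124, 109 and 147 CPM in saline KO and 121, 162, 137 and 169 CPM in FVB. The gap to saline KO was narrow at library 4 of each group. Its log2 fold change was 0.39 with SE 0.108 and an edgeR adjusted p of 0.0715; it passed the threshold with DESeq2 (adjusted p 0.0135) and without saline KO library 4 (edgeR, 0.0176).

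Dnajb1, the J-domain partner induced together with HSP70, had 46.6, 57.5, 53.1 and 53.1 CPM in poly(I:C) KO, against 43.8, 43.2, 45.4 and 49.1 CPM in saline KO and 43.2, 47.6, 50.2 and 53.1 CPM in FVB. The groups overlapped, and the log2 fold change between the knockout groups was 0.21 with SE 0.078 (edgeR adjusted p 0.179). For Hsp90aa1 the values were 995, 927, 766 and 899 CPM in poly(I:C) KO, against 812, 802, 624 and 838 CPM in saline KO and 841, 723, 890 and 1152 CPM in FVB. Library 3 was the lowest of each knockout group, and the log2 fold change was 0.22 with SE 0.133 (edgeR adjusted p 0.472).

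Hsp90ab1 varied little. It had 1464, 1486, 1405 and 1402 CPM in poly(I:C) KO, against 1443, 1364, 1459 and 1436 CPM in saline KO and 1328, 1633, 1404 and 1536 CPM in FVB. Hspa5, a target of the unfolded protein response, had 309, 313, 355 and 246 CPM in poly(I:C) KO, against 256, 263, 223 and 358 CPM in saline KO and 250, 275, 267 and 292 CPM in FVB. The knockout groups each held 1 Hspa5 library at about 355 CPM and overlapped throughout. Hspa4 had 258, 268, 215 and 240 CPM in poly(I:C) KO, against 246, 249, 230 and 247 CPM in saline KO and 230, 283, 254 and 274 CPM in FVB. The log2 fold changes of these 3 genes between poly(I:C) KO and saline KO were 0.01, 0.15 and 0.01 with SE 0.066, 0.135 and 0.074, and edgeR adjusted p was at least 0.652.

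**Figure D2:**
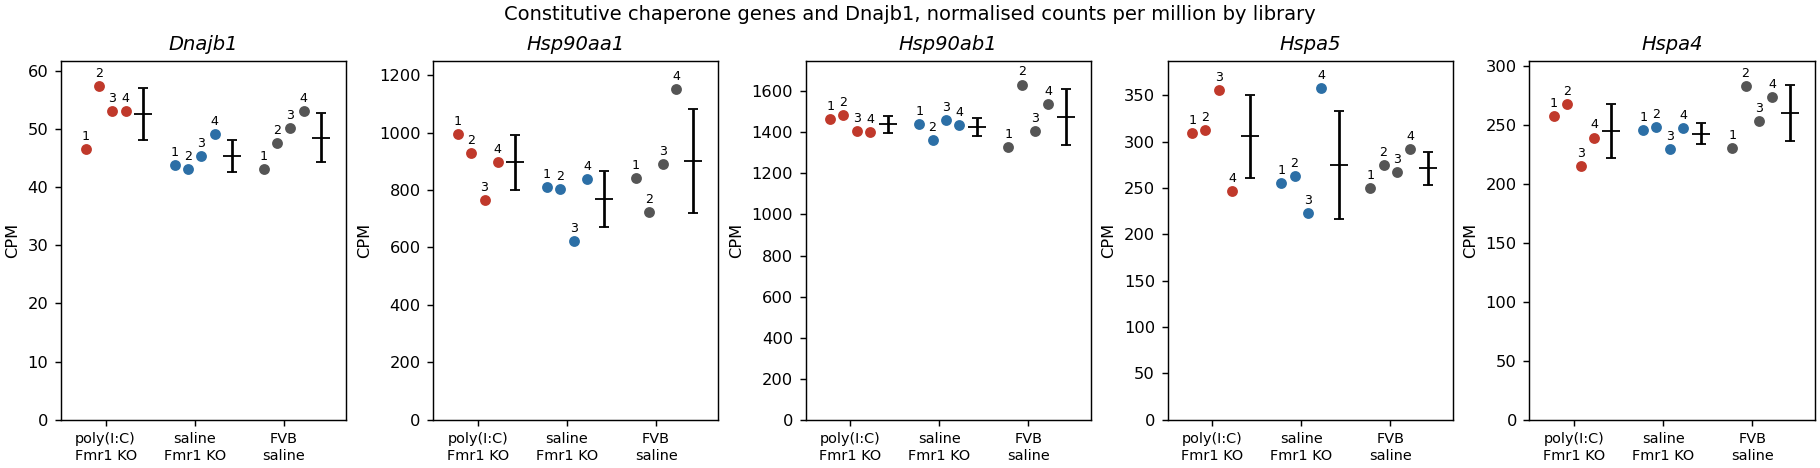
Normalised CPM (linear axis from 0) of Dnajb1, Hsp90aa1, Hsp90ab1, Hspa5 and Hspa4, 1 point per library with its replicate number, and the mean with SD bars over 4 libraries. The 3 groups overlap in all 5 genes, for example at 1402 to 1486 CPM of Hsp90ab1 in poly(I:C) Fmr1 KO, 1364 to 1459 CPM in saline Fmr1 KO and 1328 to 1633 CPM in FVB.

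Between saline KO and FVB, 1 of the 10 chaperones was called, against 1.53% of all tested genes in either direction and 0.814% called higher. This was Hspa8, also the 1 of 10 in which saline KO lay wholly above FVB, against 3.57% of all tested genes. It had 1566, 2063, 2107 and 1776 CPM in poly(I:C) KO, against 1772, 1675, 1783 and 2176 CPM in saline KO and 1087, 1135, 1153 and 1267 CPM in FVB. Both knockout groups lay wholly above FVB and overlapped each other. The log2 fold change of saline KO over FVB was 0.67 with SE 0.096 and an edgeR adjusted p of 0.00086, and that of poly(I:C) KO over FVB was 0.69 with SE 0.096 and an adjusted p of 0.000125. Both comparisons share the FVB libraries. Between poly(I:C) KO and saline KO the log2 fold change was 0.02 with an adjusted p of 0.954.

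Hspa8 lies on chromosome 9, and a processed copy of it, Gm15459, lies on chromosome 5. The copy, named here after its values were seen, is 1941 bases long and 99.7% identical to the Hspa8 coding sequence. The 5 differences, counted from base 1 of the coding sequence with the Hspa8 base first, are G114A, C414T, C549T, G1222A and C1440T. Of all 100-base windows of Hspa8 transcripts, 26.3% occur unchanged in Gm15459. Coding bases 65 to 124 from the GENCODE M21 transcripts show how alike they are, with the 1 differing base in capitals.
Hspa8: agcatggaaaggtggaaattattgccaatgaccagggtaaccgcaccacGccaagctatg
Gm15459: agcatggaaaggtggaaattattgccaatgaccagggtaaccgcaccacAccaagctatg

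Counts assigned to Gm15459 ran opposite to those of Hspa8. They came to 316, 31.3, 42.3 and 31.2 CPM in poly(I:C) KO, against 30.6, 30.2, 36.6 and 40.4 CPM in saline KO and 624, 619, 616 and 623 CPM in FVB. Of the knockout libraries, library 1 of poly(I:C) KO alone lay between the 2 levels, and it also had the lowest Hspa8 CPM of the 8 knockout libraries. Gm15459 was lower in saline KO than in FVB by 4.17 on the log2 scale, with an SE of 0.814 and an edgeR adjusted p of 0.0437. Of 6 tested genes within 1 Mb of Gm15459, edgeR called 0 between saline KO and FVB. Between poly(I:C) KO and FVB it called 1, Cfap69, at 0.58.

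Hspa8 and its 7 annotated processed copies together had 1888, 2101, 2156 and 1814 CPM in poly(I:C) KO, against 1809, 1712, 1827 and 2224 CPM in saline KO and 1719, 1761, 1776 and 1897 CPM in FVB. These summed values overlapped across all 3 groups. They averaged 1990 ± 165 CPM in poly(I:C) KO, 1893 ± 227 CPM in saline KO and 1788 ± 76.2 CPM in FVB (SD, n = 4 each). Fitted as 1 gene, the sum differed between saline KO and FVB by 0.08 on the log2 scale with SE 0.081 and an edgeR adjusted p of 0.763, and between poly(I:C) KO and FVB by 0.15 with SE 0.081 and an adjusted p of 0.284. Hspa8 held 82.9% of the summed counts in poly(I:C) KO library 1, 97.6% to 98.2% in the other 7 knockout libraries and 63.2% to 66.8% in FVB. Summing was chosen after seeing the data. How reads that match several places were counted is not given, and whether reads assigned to Gm15459 came from Hspa8 was not tested.

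**Figure D3:**
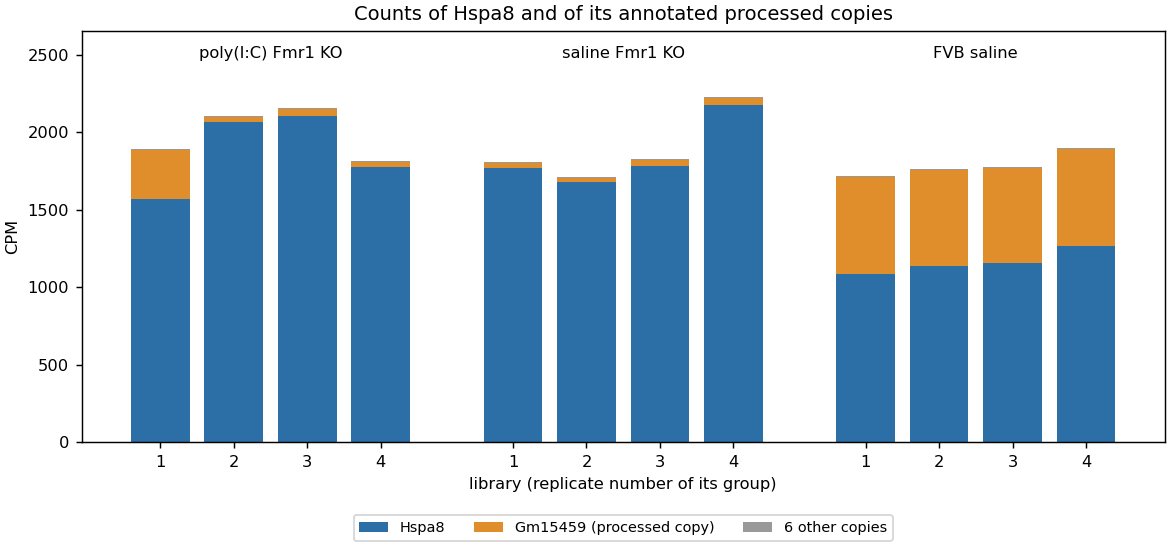
Stacked bars of normalised CPM (axis from 0) assigned to Hspa8, to its processed copy Gm15459 and to 6 further copies in each library of poly(I:C) Fmr1 KO, saline Fmr1 KO and FVB. Bar heights overlap between groups, at 1814 to 2156 CPM in poly(I:C) Fmr1 KO, 1712 to 2224 CPM in saline Fmr1 KO and 1719 to 1897 CPM in FVB. The Gm15459 segment is 616 to 624 CPM in FVB, 316 CPM in poly(I:C) library 1 and 30.2 to 42.3 CPM in the other knockout libraries.

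Genes close to Hspa8 also differed between the knockout and FVB. Of 14 tested genes within 1 Mb, 4 were called between saline KO and FVB, which is 28.6% against the 1.53% of all tested genes. Clmp, which encodes a cell adhesion protein, had 60.5, 44.3, 38.7 and 41.2 CPM in poly(I:C) KO, against 37.5, 40.1, 35.8 and 34.6 CPM in saline KO and 82.6, 64.6, 71.6 and 72.3 CPM in FVB. Its log2 fold change between saline KO and FVB was -0.98 with SE 0.118 (edgeR adjusted p 0.000364). Ubash3b, a tyrosine phosphatase gene, had 127, 163, 152 and 145 CPM in poly(I:C) KO, against 174, 145, 161 and 156 CPM in saline KO and 96.4, 126, 102 and 105 CPM in FVB. It rose by 0.57 in saline KO over FVB with SE 0.088 (edgeR adjusted p 0.00168). At Clmp and Ubash3b poly(I:C) library 1 was the knockout library nearest to FVB. The other 2 called genes were 1700063D05Rik, with a log2 fold change of 1.96, and Gm16096, with -1.79. Gm16096 had 1.10, 1.26, 0.932 and 0.694 CPM in poly(I:C) KO, against 0.339, 0.579, 0.333 and 0.354 CPM in saline KO and 1.91, 0.715, 1.52 and 1.42 CPM in FVB. It also rose in poly(I:C) KO over saline KO, by 1.31 with an edgeR adjusted p of 0.0361, and there poly(I:C) libraries overlapped with FVB. Library 1 of poly(I:C) KO did not stand apart at these 2 genes. At Gm16096 library 2 lay above it, and at 1700063D05Rik libraries 1 and 4 were level at 2.09 and 2.10 CPM. Whether these neighbours and the Hspa8 counts share a cause was not tested.

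Hspa1b was the other chaperone with a large genotype estimate. It averaged 4.99 ± 3.40 CPM in saline KO and 10.2 ± 0.398 CPM in FVB (SD, n = 4 each), a log2 fold change of -1.02 with SE 0.407 and an edgeR adjusted p of 0.347. Without saline KO library 4 it was -1.61 with an adjusted p of 0.00723, so that 1 library decided this call. The remaining 8 chaperones had log2 fold changes between -0.24 and 0.02, and the median of all 10 was -0.08 against 0.0033 over all tested genes.

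Poly(I:C) KO and FVB differed in both genotype and treatment. Hspa8, Hspa1a and Hspb1 were called higher, 3 of 10 against 3.81% of all tested genes called higher and 7.05% called in either direction, and Hspa1b also lay wholly above FVB, making 4 of 10 without overlap against 6.74% of all tested genes. Hspa1a was higher by 1.67 on the log2 scale with SE 0.232 and an edgeR adjusted p of 0.000106. Hspb1 was higher by 1.45 with SE 0.268 and an adjusted p of 0.00344, and without the 3 high-Ttr libraries by 1.00 with an adjusted p of 0.0531. Hspa1b was higher by 0.80 with SE 0.395 and an adjusted p of 0.286. The Hspa8 and Hspa1a calls depended on how like genes were counted. Summed with its copies, Hspa8 was higher by 0.15 with an edgeR adjusted p of 0.284. Hspa1a summed with Hspa1b was higher by 0.94 with an adjusted p of 0.112, whereas the sum that also held Hspa1l was called.

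**Figure D4:**
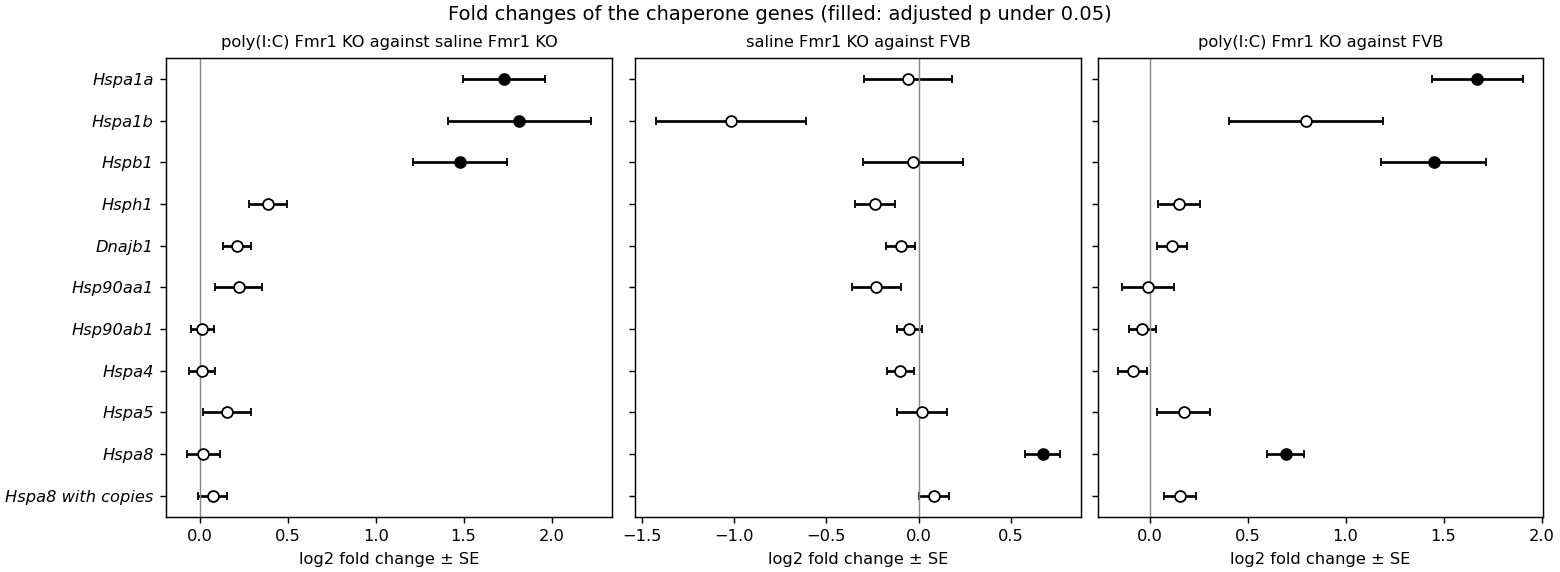
Log2 fold changes with SE bars of the 10 chaperones, and of Hspa8 summed with its copies, for poly(I:C) Fmr1 KO against saline Fmr1 KO, saline Fmr1 KO against FVB, and poly(I:C) Fmr1 KO against FVB; filled points have an adjusted p under 0.05. Hspa8 is filled in both comparisons with FVB at 0.67 and 0.69, and the sum with its copies is open at 0.08 and 0.15.

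Hspa1a and Hspa1b share 47.1% to 49.9% of their 100-base windows, so their counts are uncertain taken singly. Counts of the pair together with the related Hspa1l, a testis HSP70, came to 16.1, 22.7, 31.4 and 26.2 CPM in poly(I:C) KO, against 5.55, 6.68, 6.41 and 12.1 CPM in saline KO and 12.0, 11.8, 12.6 and 13.2 CPM in FVB. The poly(I:C) libraries lay above all others here too. The sum rose by 1.64 over saline KO with SE 0.247 (edgeR adjusted p 0.00273) and by 0.95 over FVB with SE 0.241 (adjusted p 0.0352). Summing Hspa1a and Hspa1b alone kept the rise over saline KO, at 1.80 with an adjusted p of 0.0149, but gave 0.94 with an adjusted p of 0.112 over FVB, which ends the single-gene call of Hspa1a there. Hspa1b took 44.0% to 81.8% of the sum in saline KO and 80.0% to 83.7% in FVB, so the division between the genes itself varied. The Hspb1 copy Hsp25-ps1 had at most 2 counts in any library, and Hsp90aa1 held 98.4% to 98.9% of the sum with its 3 copies.

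Hspa1a and Hspa1b lie in the major histocompatibility region. Of 104 tested genes within 1 Mb of Hspa1a, 8 were called higher in poly(I:C) KO than in saline KO, which is 7.69% against 1.81% of all tested genes. Besides Hspa1b they included Psmb8 and Psmb9, subunits of the immunoproteasome, at 2.43 and 1.80 on the log2 scale, and the peptide transporters Tap1 and Tap2 at 1.99 and 1.32. Of 41 tested genes within 1 Mb of Hspb1, Hip1 was called, at 0.39.

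Of 128 further genes of the folding machinery, 125 were tested. Between poly(I:C) KO and saline KO edgeR called 0 of them, against 2.87% of all tested genes, and 16 had an unadjusted p under 0.05, against 15.5% of all tested genes. Between saline KO and FVB it called 0, against 1.53%, and 10 had an unadjusted p under 0.05, against 12% of all tested genes. Their median log2 fold changes were 0.01 and -0.01. Hsf1, the master regulator of the heat shock response, averaged 37.3 CPM in poly(I:C) KO, 35.3 CPM in saline KO and 36.1 CPM in FVB. Bag3, a co-chaperone normally induced with HSP70, averaged 24.2 CPM in poly(I:C) KO, 22.5 CPM in saline KO and 21.8 CPM in FVB, with an edgeR adjusted p of 0.765 between the knockout groups. Cryab, an abundant small heat shock protein of glia, averaged 87.4 CPM in poly(I:C) KO and 78.3 CPM in saline KO (edgeR adjusted p 0.384).

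The co-chaperones gave like values. Dnaja1, a J-domain protein, averaged 233 CPM in poly(I:C) KO, 210 CPM in saline KO and 224 CPM in FVB, and Stip1, which links HSP70 to HSP90, averaged 251 CPM in poly(I:C) KO, 234 CPM in saline KO and 249.9 CPM in FVB. Hsf2, a second heat shock factor, averaged 33.8 CPM in poly(I:C) KO, 35.5 CPM in saline KO and 34.2 CPM in FVB. Of the organelle chaperones, Hspa9 (mitochondrial HSP70) had 282 CPM in poly(I:C) KO, 294 CPM in saline KO and 324 CPM in FVB. Hspd1 had 178 CPM in poly(I:C) KO, 173 CPM in saline KO and 191 CPM in FVB. Hspe1, its partner in the mitochondrial chaperonin, had 50.2 CPM in poly(I:C) KO, 43.7 CPM in saline KO and 52.0 CPM in FVB. Hsp90b1, the HSP90 of the endoplasmic reticulum, had 226 CPM in poly(I:C) KO, 201 CPM in saline KO and 218 CPM in FVB. None of these passed the test in any comparison.

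In poly(I:C) KO against FVB, edgeR called 4 of the 125, 2 higher and 2 lower, against 7.05% of all tested genes called in either direction and 3.81% called higher. An unadjusted p under 0.05 was found for 22, against 21.3% of all tested genes. Hspa1l had 1.54 ± 0.345 CPM in poly(I:C) KO and 0.702 ± 0.222 CPM in FVB (SD, n = 4 each), a log2 fold change of 1.14 with an edgeR adjusted p of 0.0363. Derl3, a factor of endoplasmic reticulum-associated degradation, had 1.98 ± 0.315 CPM in poly(I:C) KO and 1.01 ± 0.080 CPM in FVB, a log2 fold change of 0.98 (adjusted p 0.0179). The HSP70 co-chaperone Bag5 and the asparagine synthetase gene Asns fell by 0.24 and 0.23 on the log2 scale, with edgeR adjusted p of 0.0272 and 0.0424.

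Among named genes, the profile over 12 libraries most like that of Hspa8 was Rras2, with Pearson's r of 0.96 on log2 CPM, followed by Rabl2 (0.95), Tnni3 (0.94), Zik1 (0.92) and Rnf26 (0.92). These share with Hspa8 a level that was lower in FVB than in both knockout groups. The profiles most like the mean of Hspa1a and Hspa1b were those of Apol10b (0.93), Acyp1 (0.93), Hspb1 (0.92), Mrpl24 (0.92) and Cadm1 (0.91). Hspb1, the only other chaperone among these 5, was found by this search over all named genes. It and the pair were all called higher after poly(I:C), and this group difference enters r. With group means taken out, r of Hspb1 was 0.32 with Hspa1a and 0.81 with Hspa1b, against 0.87 and 0.82 before. These correlations describe the same libraries and depth for every gene and carry no test.

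Some libraries held the extreme values of several chaperones. Library 4 of saline KO was the highest of its group in 7 of 10 chaperones, against 28.2% of all tested genes, and library 4 of FVB was also the highest in 7 of 10, against 25.3%. In poly(I:C) KO, the high-Ttr libraries 2 and 3 held the highest values of 5 and 4 of the 10, against 23.1% and 27.5% of all tested genes. The third high-Ttr library, library 2 of saline KO, was the highest of its group in 1 of 10, against 22.8%. It was the lowest in 4 of 10, against 20.7%. Library 1 of FVB was the lowest in 7 of 10, against 26.3%.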

How the data were processed

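TruSeq libraries were made from DNase-treated TRIzol RNA, per the labels' protocols. The authors deposited 1 table of raw read counts (57010 Ensembl genes, 12 libraries). Trim Galore, HISAT2, featureCounts and the GRCm39 build are named in the submitters' processing notes. Tool versions, strandedness, annotation release and the handling of multiply mapped reads are not given in the sources analysed. Groups and replicate numbers were taken from the labels.

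Symbols, exon lengths, neighbours and transcript sequences came from GENCODE M21 (GRCm38) by Ensembl identifier, and promoters from RefSeq (GRCm38.p6); positions were not converted between builds. Genes were kept by filterByExpr of edgeR 4.0.16 (minimum count 10, minimum total 15), which left 19166. Counts were scaled by TMM and fitted by the robust quasi-likelihood model on 3 group means (R 4.3.3, 9 residual degrees of freedom, common biological coefficient of variation 0.152). A call means a Benjamini-Hochberg adjusted p under 0.05 over all tested genes. The SE of a log2 fold change was its absolute size divided by the root of the F statistic. The fit was tested on simulated data. Alternatives were DESeq2 1.42.0, limma-voom (limma 3.58.1), RLE and upper quartile scaling, other filters, fits of 2 groups, with a replicate block or without robust estimation, leaving out libraries, and summing copies. Copies were genes sharing 100-base windows with a chaperone transcript.

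The chaperones and lists were chosen with earlier results of these data known. Genes named outside the 10 were those called in pathway lists, 10 fixed chaperone genes, the 5 most correlated with Hspa8 and with the mean of Hspa1a and Hspa1b, and called neighbours within 1 Mb, of which the text gives some. 1 marker result is not reported here. No replicate pair agreed within sampling noise: the smallest chi-square per gene was 12.4.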

Additional observations from a re-analysis of the deposited data

Results flagged for a closer look

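Of 129 groups of 4 libraries checked for 1 value far from the other 3, 8 stood out by Dixon's criterion; chance flags about 1 in 20. Library 3 of saline Fmr1 KO had the outlying values of Hsp90aa1, 624 CPM against 802 to 838 CPM in the other 3, and of Hspa4, 230 CPM against 246 to 249 CPM. Library 4 of saline Fmr1 KO had 2.16 CPM of Derl3, against 1.15 to 1.20 CPM, and 249 CPM of Stip1, against 229 to 230 CPM. Library 1 of poly(I:C) Fmr1 KO had 316 CPM of Gm15459, against 31.2 to 42.3 CPM, and 92.3 CPM of Cryab, against 85.6 to 85.9 CPM. Library 2 of saline Fmr1 KO had 4156 CPM of Ttr, against 7.64 to 25.0 CPM, and 0.579 CPM of Gm16096, against 0.333 to 0.354 CPM.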

How the results depend on the processing

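Direction and side of the threshold were kept in 665 of 720 recomputed chaperone values. Called genes in all, 550, 294 and 1352 in the 3 comparisons, came to 986 (poly(I:C) KO against saline KO) and 633 (saline KO against FVB) with DESeq2, to 506 (saline KO against FVB) without a filter, and to 215 (poly(I:C) KO against saline KO) and 556 (poly(I:C) KO against FVB) without the high-Ttr libraries, which also left 1 called chaperone between the knockout groups. Summed with copies, 0 chaperones were called by edgeR between saline KO and FVB, against 1, with 3 at an unadjusted p under 0.05 (the Hspa1a and Hspa1b sum, counted for both, and Hsph1); no other tool was run on the sums. Leaving out 1 library at a time gave 2 to 4, 1 to 2 and 3 to 4 called chaperones and 347 to 689, 156 to 300 and 791 to 1542 called genes, for poly(I:C) KO against saline KO, saline KO against FVB and poly(I:C) KO against FVB.

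Values that changed sign were never called. Hsp90aa1 in poly(I:C) KO against FVB was 0.0085 with limma-voom, 0.00049 without a filter and 0.074 without the high-Ttr libraries. Without these libraries Hspa8 was -0.19, Hsp90ab1 -0.011 and Hspa5 -0.0054 between poly(I:C) KO and saline KO, and Hspa1a was 0.051 and Hspb1 0.019 between saline KO and FVB. Leave-one-out ranges that cross 0 were -0.036 to 0.11 for Hspa8, -0.0061 to 0.029 for Hsp90ab1 and -0.030 to 0.074 for Hspa4 between the knockout groups. Between saline KO and FVB they were -0.20 to 0.053 for Hspa1a, -0.36 to 0.091 for Hspb1, -0.097 to 0.0026 for Hsp90ab1 and -0.14 to 0.11 for Hspa5. Between poly(I:C) KO and FVB they were -0.099 to 0.13 for Hsp90aa1 and -0.083 to 0.016 for Hsp90ab1. The causes were not tested.

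Hspa1b between the knockout groups was not called without a filter (edgeR adjusted p 0.0703) or in a fit of only the 2 groups (0.145), and in the fit of only the 2 groups it was called against FVB (0.0260). Hsph1 was also called in the fit of 2 groups (0.0341), without FVB library 1 (0.0301) and with the replicate block (0.0298). Same-numbered libraries deviated with correlations of -0.099 to 0.15. Between poly(I:C) KO and saline KO, libraries 1 and libraries 2 were each other's best match, at 0.107 and 0.145. The labels do not say whether a number marks a pairing, and correlations this weak cannot settle it. The block gave 563, 274 and 1322 called genes and 4, 1 and 3 called chaperones in the 3 comparisons. Hspa1a, at 1 to 6 CPM, rests on 43 to 274 counts per library.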
